A study of Mus musculus with 8 samples.

Results

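Pericytes and vascular smooth muscle cells, together called mural cells, wrap the outside of blood vessels and give them support and tone. Endothelial cells draw pericytes to new vessels by secreting platelet-derived growth factor B, which acts on the receptor that Pdgfrb encodes. Smooth muscle cells carry in addition a set of contractile proteins whose genes are controlled by serum response factor (SRF) together with myocardin. The 9 genes described here are Pdgfrb, Rgs5, Cspg4 and Mcam, which are used to find pericytes, and Acta2, Tagln, Cnn1, Myh11 and Des, which encode parts of the contractile and filament apparatus. They were chosen by name, each matched 1 Ensembl gene ID of the 29639 genes in the deposited mRNA table, and 8 of them were among the 13279 genes with at least 1 FPKM in at least 2 columns.

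RNA came from mouse embryos in bulk. PKI embryos had inherited from the father, MKI embryos from the mother and HOMO embryos from both parents an insertion of 3 polyadenylation cassettes in the promoter of Gtl2, and WT embryos carried none. Gtl2, also called Meg3, lies in the imprinted domain between Dlk1 and Dio3 and is read from the chromosome inherited from the mother. The the comparisons ask how RNA levels differ when either or both copies carry the insertion. The design text gives embryonic day 12.5 for every group, whereas the sample titles give a slightly later day, different in each, for PKI, MKI and HOMO. Neither strain nor pooling of embryos was stated in the sources used here.

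The labels list 2 samples per genotype, but the table has 1 column per genotype, so no spread between embryos can be given, no test was possible and every difference below is between single columns. Values are FPKM, a level per transcript length and library size, and the depth behind them is unknown. Differences are on the log2(FPKM + 0.5) scale, which understates those of low genes, and a gene was counted when it differed by 2-fold or more on that scale. The MKI column stood apart from the rest of the table: across 13279 genes, which share the columns, its Pearson's r with the other columns was 0.864 to 0.882, against 0.961 to 0.975 among PKI, HOMO and WT. The genes Ddx3y, Kdm5d, Uty and Eif2s3y of the Y chromosome lay between 7.12 and 29.7 FPKM in the knock-in columns and were listed at 0 in WT, so the sex of the embryos and the genotype cannot be told apart in comparisons with WT.

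All 9 genes had a value above 0 in every column, and the levels covered a wide range. Acta2 (chromosome 19, 34240336 to 34255585, GRCm38), the smooth muscle alpha-actin, was the highest by far, at 74.0 FPKM in PKI, 50.5 in MKI, 60.7 in HOMO and 71.4 in WT. It made up 56.9, 59.2, 50.3 and 55.2% of the summed level of the 9 genes in PKI, MKI, HOMO and WT. Actin genes are close copies of each other, and reads may be split among them. Myh11 (chromosome 16, 14194527 to 14292188), the smooth muscle myosin heavy chain that marks mature cells, was the lowest, at 0.452 FPKM in PKI, 0.797 in MKI, 0.477 in HOMO and 0.559 in WT, and was below the expression filter. Lmod1, another gene of mature smooth muscle, stood at 0.109 to 0.257 FPKM, and the pericyte gene Higd1b was listed at 0 in all columns.

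**Figure D1:**
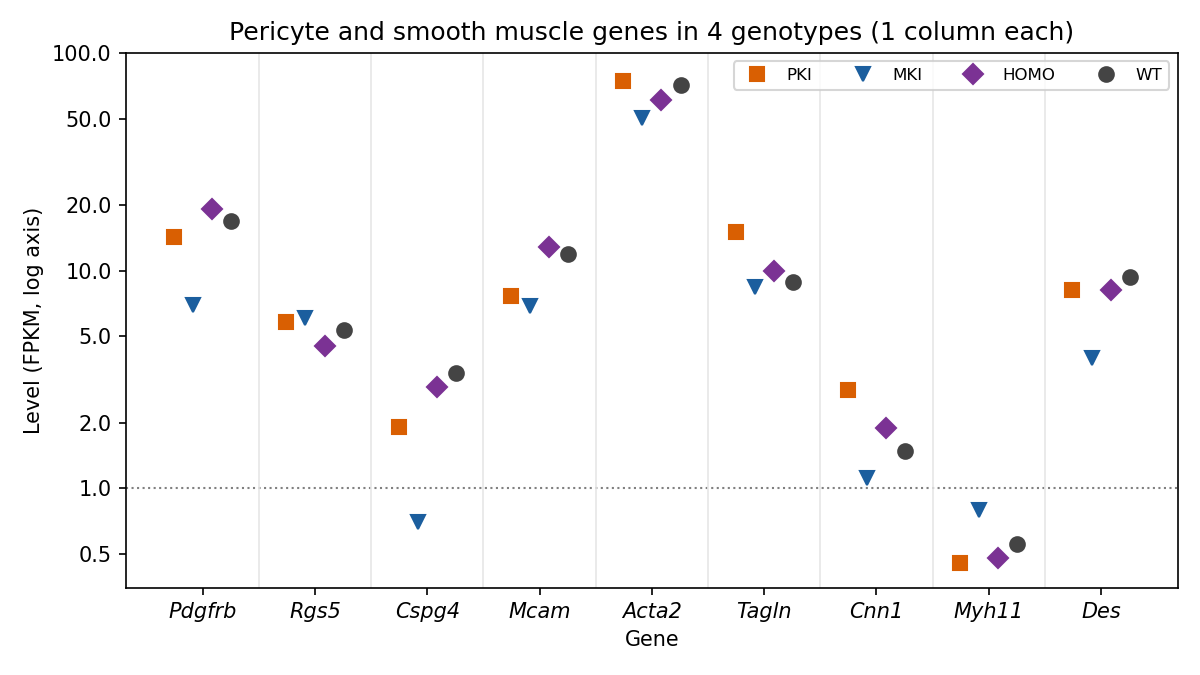
Level of each gene (FPKM, log axis) in the PKI, MKI, HOMO and WT columns, 1 point per column and no error bars because there is 1 column per genotype. MKI is the lowest point for 7 of the 8 genes above the filter (dotted line, 1 FPKM), all but Rgs5 (4 under quantile normalization), and for Cspg4 it falls below the line. The share of all genes with MKI lowest was not computed.

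Regulatory sequence near the start of these genes is shown because SRF acts through CArG boxes, 10-base elements with 6 A or T bases in the middle. RefSeq promoter windows (GRCm38.p6, 250 bases before to 50 bases after an annotated start) were found for 6 of the 9 genes, Acta2, Cnn1, Des, Rgs5, Mcam and Cspg4. A full CArG box occurred in 1.63% of all 32851 windows, and a box with at most 1 mismatch in the middle in 9.98%. Since the element has the same form on both strands, each window was read once. Of the 6 windows only that of Acta2 held boxes, 2 with 1 mismatch each, 84 and 34 bases before the annotated start used. That start and the stretch shown lie inside the Acta2 span given above, which on the minus strand begins at 34255585. For comparison, the window of Srf, which encodes SRF itself, held 2 full boxes, and that of Myl9, a smooth muscle myosin light chain, held 1 full box and 1 with a mismatch. These were picked because they hold boxes: of the other contractile and mural genes looked at, Vcl held 1 full box, and Notch3, Smtn, Mylk, Csrp1, Flna, Tpm1, Tpm2, Cald1 and Lmod1 held none. Capitals mark the boxes in the stretches below, chr19:34255374-34255473 on the minus strand for Acta2, chr17:46556163-46556262 on the minus strand for Srf and chr2:156775294-156775383 on the plus strand for Myl9. A match is a likeness of letters only.
Acta2: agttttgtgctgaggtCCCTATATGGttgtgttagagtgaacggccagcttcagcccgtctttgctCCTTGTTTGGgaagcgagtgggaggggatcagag
Srf: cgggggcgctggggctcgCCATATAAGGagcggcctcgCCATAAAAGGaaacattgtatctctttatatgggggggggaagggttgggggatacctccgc
Myl9: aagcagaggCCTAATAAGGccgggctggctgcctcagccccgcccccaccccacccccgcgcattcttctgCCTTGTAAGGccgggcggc

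Against WT, genes of the list were past 2-fold in the MKI column alone. There Pdgfrb, Cspg4 and Des were lower and none was higher, 3 of the 8 genes above the filter, where 19.1% of all genes tested were 2-fold lower and 1.22% higher. Under quantile normalization only Cspg4 (-1.47) of these was past 2-fold, with Pdgfrb at -0.98 and Des at -0.79, and set against genes of like span Des (-0.54) was not. In PKI and in HOMO none of the 8 was past 2-fold, where 2.15% and 1.45% of all genes were, either way. The 8 genes had a median difference of -0.63 in MKI (range -1.69 to 0.16), -0.07 in PKI (-0.68 to 0.75) and -0.04 in HOMO (-0.23 to 0.27), beside medians of -0.11, -0.07 and -0.06 over all genes tested. In bulk embryo RNA, fewer cells of a type and less RNA per cell cannot be told apart. The counts over all genes depend on scaling: 93 genes were higher and 193 lower in PKI (105 and 128 under quantile normalization, 116 and 148 under TMM scaling), and 162 were higher and 2532 lower in MKI (580 and 1657 under quantile normalization). Quantile normalization moved the median of all genes in MKI against WT by 0.23 and TMM scaling by 0.13.

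**Figure D2:**
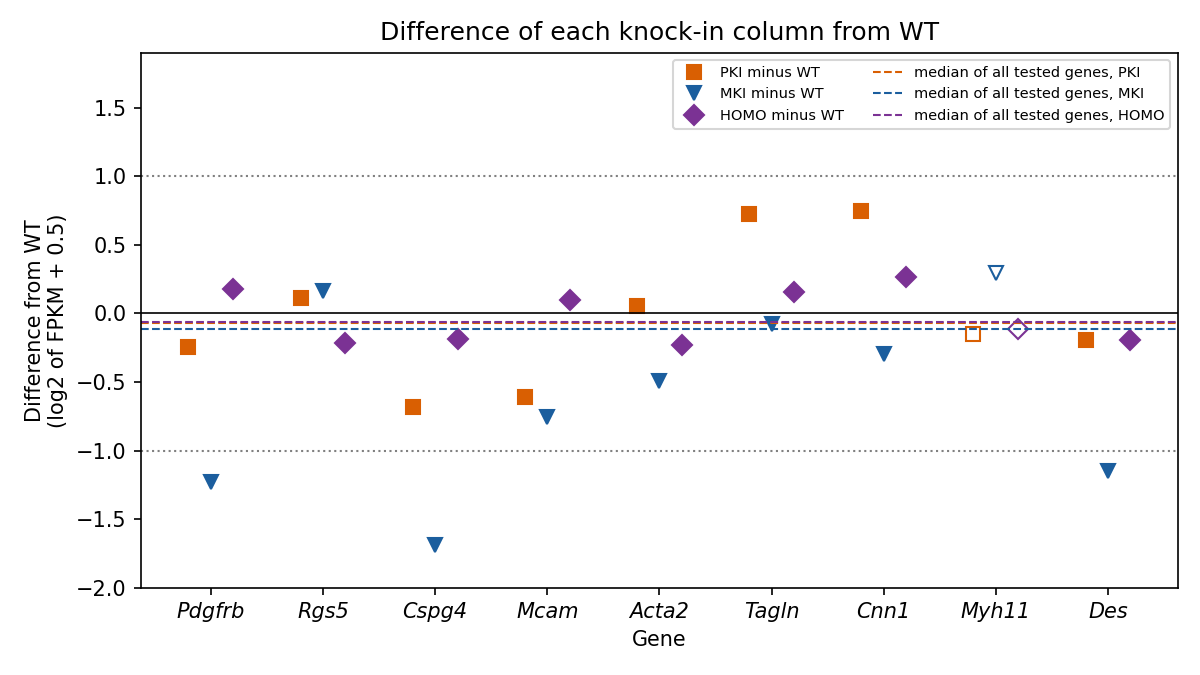
Difference of the PKI, MKI and HOMO columns from WT for each gene (log2 of FPKM + 0.5), with dotted lines at 2-fold, dashed lines at the median of all 13279 genes tested and open symbols for Myh11, which was below the filter. Pdgfrb, Cspg4 and Des lie below the lower dotted line in MKI, while no gene passes 2-fold in PKI or HOMO.

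Pdgfrb (chromosome 18, 61045127 to 61085067), the receptor through which pericytes are recruited, stood at 14.2 FPKM in PKI, 6.97 in MKI, 19.3 in HOMO and 16.97 in WT. The MKI column was low and the other 3 lay within 1.36-fold of each other. Its difference from WT was -0.25 in PKI, -1.23 in MKI and 0.18 in HOMO. Relative to the median of all genes, the MKI difference was -1.11 on the deposited scale, -1.10 under quantile normalization and -1.11 under TMM scaling. Mesenchyme also carries the receptor: 7 of 14 genes on its list were below WT in MKI (median -0.21, but 0.05 with no filter and 0.17 with a filter of 5 FPKM), and the summed level of all 15 was 613 FPKM in PKI, 531 in MKI, 648 in HOMO and 627 in WT, with none at 0. Their part in the Pdgfrb values was not tested.

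Cspg4 (chromosome 9, 56865104 to 56899870) encodes the proteoglycan NG2, which is carried by pericytes and also by glial precursors and cartilage. It was at 1.92 FPKM in PKI, 0.703 in MKI, 2.92 in HOMO and 3.39 in WT, with differences from WT of -0.68, -1.69 and -0.19. MKI was lowest, PKI lay in between, and HOMO and WT were close. This was the widest spread in the list, 4.82-fold between the highest and the lowest column, at levels near the filter. Of the markers of the other tissues that use Cspg4, Sox10, a regulator of neural crest and glia, stood at 3.82 FPKM in PKI, 0.928 in MKI, 6.15 in HOMO and 4.75 in WT, and the cartilage collagen gene Col2a1 at 27.8, 18.8, 58.1 and 68.0 FPKM in the same columns. The 9 glial and crest genes summed to 185 FPKM in PKI, 285 in MKI, 186 in HOMO and 186 in WT, with none at 0 and 4 of 7 below WT in MKI. The 7 cartilage genes summed to 71.4, 77.7, 119.7 and 130 FPKM, with Comp listed at 0 in MKI and 4 of 6 below WT there. Their part in the Cspg4 values was not tested.

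Mcam (chromosome 9, 44134658 to 44142727), an adhesion molecule of both pericytes and endothelium, was at 7.63 FPKM in PKI, 6.85 in MKI, 12.81 in HOMO and 11.9 in WT. PKI and MKI were the lower pair, at -0.61 and -0.76 from WT, and HOMO was at 0.10. Set against genes of like span, PKI was at -0.63, MKI at -0.15 and HOMO at 0.10. Of 15 endothelial genes, 13 were below WT in PKI and 9 in MKI, while 10 were above it in HOMO (medians -0.41, -0.97 and 0.17). For all genes tested the medians were below 0 in each of these comparisons (-0.07, -0.11 and -0.06). The share of all genes below WT was not computed, so the endothelial counts cannot be set against the table as a whole. The summed level of the 15 was 79.9 FPKM in PKI, 78.9 in MKI, 117 in HOMO and 109 in WT, none was at 0, and their part in the Mcam values was not tested.

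Rgs5 (chromosome 1, 169655501 to 169695813), a regulator of G-protein signalling that is abundant in pericytes, had the flattest profile, at 5.81 FPKM in PKI, 6.05 in MKI, 4.53 in HOMO and 5.34 in WT. It was the only gene above the filter whose highest column was MKI, and the ratio of the highest to the lowest column was 1.34. The 4 pericyte genes thus did not share a pattern in MKI, with Pdgfrb and Cspg4 past 2-fold lower and Rgs5 at 0.16.

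Among the contractile genes Tagln (chromosome 9, 45929628 to 45936058), encoding the actin-binding protein SM22-alpha, was at 15.0 FPKM in PKI, 8.43 in MKI, 10.005 in HOMO and 8.92 in WT. Cnn1 (chromosome 9, 22099221 to 22109221), encoding calponin, was at 2.83 FPKM in PKI, 1.12 in MKI, 1.89 in HOMO and 1.48 in WT. Both were highest in PKI, by 0.72 and 0.75 over WT, which did not reach 2-fold. Acta2 did not share this, with differences from WT of 0.05 in PKI (-0.02 under quantile normalization), -0.50 in MKI and -0.23 in HOMO. The ratio of Tagln to Acta2 levels was 0.203 in PKI, 0.167 in MKI, 0.165 in HOMO and 0.125 in WT. Heart muscle, which also uses Acta2, Tagln and Cnn1 in the embryo, had 9 of 13 genes above WT in PKI (median 0.17, beside -0.07 over all genes tested). Among the 9, the atrial genes Nppa and Myl7 were at 18.01 and 24.9 FPKM in PKI against 10.3 and 15.5 in WT. The other 4 were below WT, among them Actc1 and Myh7, at 101 and 14.3 FPKM in PKI against 122 and 19.8 in WT. The 15 heart genes summed to 298 FPKM in PKI, 237.5 in MKI, 273 in HOMO and 277 in WT, with none at 0, and their part in the Tagln and Cnn1 values was not tested.

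Des (chromosome 1, 75360292 to 75368579), the muscle intermediate filament desmin, was at 8.18 FPKM in PKI, 3.97 in MKI, 8.17 in HOMO and 9.41 in WT. MKI alone was low, at -1.15 from WT (-0.79 under quantile normalization and -0.54 against genes of like span, both under 2-fold), while PKI and HOMO were each at -0.19. Skeletal muscle, a further source of desmin, had 5 of 18 genes 2-fold lower in MKI, where 19.1% of all genes tested were. The muscle regulators Myod1 (4.87 against 13.2 FPKM) and Myog (5.17 against 20.5 FPKM) were among the 5. Of the 18, 8 were above WT, such as Ttn, the sarcomere protein titin (13.5 against 10.8 FPKM), none by 2-fold. The list had a median of -0.12, which was 0.16 under quantile normalization and 0.01 under TMM scaling. The 20 genes of that list summed to 155 FPKM in PKI, 151 in MKI, 177 in HOMO and 189 in WT, with Myf6 listed at 0 in HOMO. Their part in the Des value was not tested. In the summed level of the 9 genes PKI held 130 FPKM, MKI 85.4, HOMO 121 and WT 129.

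In the order of levels, 26 of the 27 pairs of neighbouring columns over the 9 genes were less than 2-fold apart on the log2(FPKM + 0.5) scale. The exception was Cspg4, between PKI and MKI (1.01). The count includes Myh11, which was below the filter, and the share over all genes was not computed. Pdgfrb in PKI against MKI (0.98) and Des in HOMO against MKI (0.96) were just under 2-fold on that scale, while their plain FPKM ratios were 2.04 and 2.06.

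The insertion was also compared in pairs that do not involve WT. HOMO and PKI both carry the paternal insertion and differ in the maternal one, and this pair shares no column with MKI and WT. None of the 8 genes was past 2-fold in HOMO against PKI, where 2.87% of all genes were. The 3 genes that were 2-fold lower in MKI than WT did not follow: Pdgfrb differed by 0.43, Cspg4 by 0.50 and Des by -0.00 in HOMO against PKI. Mcam, at 0.71, was the furthest above PKI, and Tagln, at -0.57, the furthest below. Acta2, Tagln and Cnn1 were below 0 in both pairs, at -0.28, -0.57 and -0.48 in HOMO against PKI and -0.50, -0.08 and -0.29 in MKI against WT, and none of these reached 2-fold. In MKI against WT Tagln was above 0 under quantile normalization (0.17) and TMM scaling (0.05), and Cnn1 under quantile normalization (0.01).

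**Figure D3:**
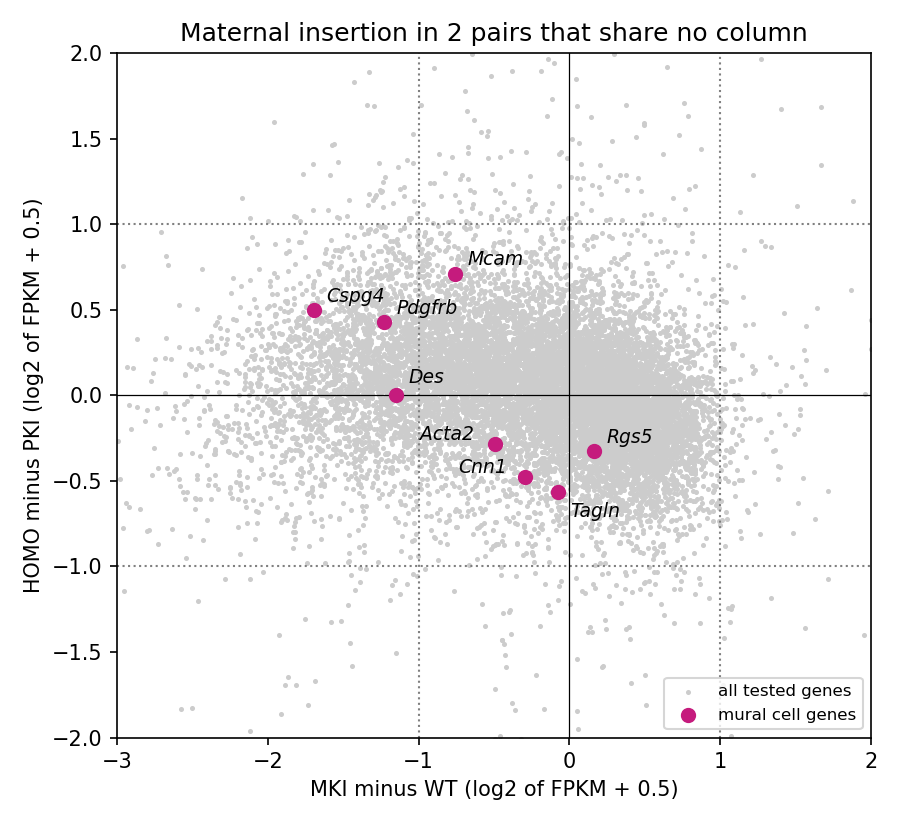
Difference of MKI from WT (x axis) against that of HOMO from PKI (y axis), both in log2 of FPKM + 0.5, for the 8 genes above the filter (coloured) and all genes tested within the axis limits (grey). Dotted lines mark 2-fold; Pdgfrb and Cspg4 lie left of -1 and above 0, Des lies left of -1 at 0, and no coloured point is below -1 on the y axis.

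HOMO and MKI share the maternal insertion and differ in the paternal one. Pdgfrb (1.41) and Cspg4 (1.51) were 2-fold higher in HOMO and none was lower, 2 of 8 genes, where 19.7% of all genes were higher and 3.64% lower (2615 and 484 genes, or 1955 and 1026 under quantile normalization). In the other pair that differs by the paternal insertion, PKI against WT, the same genes were at -0.25 and -0.68. Between the columns with a single insertion, MKI against PKI, Cspg4 (-1.01) and Cnn1 (-1.04) were 2-fold lower and none was higher, where 16.6% of all genes were lower and 2.55% higher (2198 and 339, or 1653 and 705 under quantile normalization). Both calls sat at the threshold, and neither held under quantile normalization (-0.95 and -0.84) or with a pseudocount of 1 (-0.78 and -0.85).

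The difference between MKI and WT moved with gene span over the whole table. Across 12330 genes with a RefSeq span, Spearman's rho between the difference and the span was 0.342 in MKI, -0.279 in PKI and -0.154 in HOMO; genes share the columns and are not independent. With the genes cut into 10 equal bins by span, the median in MKI was -0.75 and 39.2% were 2-fold lower in the bin of the shortest, against 0.13 and 3.57% in the bin of the longest. Des, Mcam and Tagln have short spans of 8288, 8070 and 6431 bases, in a bin whose median was -0.61. Set against genes of like span, Des was at -0.54 in MKI, no longer past 2-fold, Mcam at -0.15 and Tagln at 0.53. Pdgfrb and Cspg4, with spans of 39941 and 34767 bases, lie in a bin with a median of 0.05, and their differences were -1.28 and -1.75. Genes of the other lists were not set against genes of like span, so differences among them in MKI may go with span. The part of other features that go with span was not tested.

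**Figure D4:**
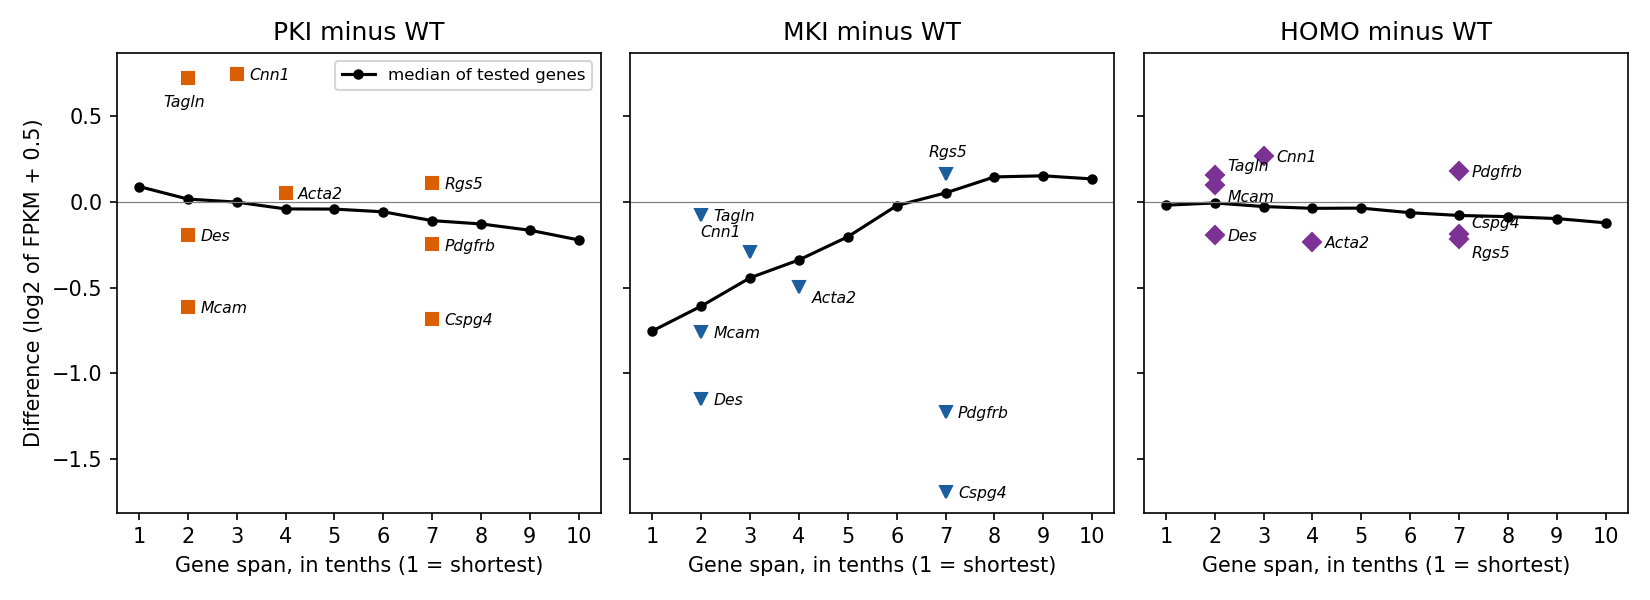
Difference from WT (log2 of FPKM + 0.5) against gene span in 10 equal bins of the genes tested, 1 being the shortest, with the median of each bin in black and the 8 genes above the filter as coloured symbols, 1 panel per knock-in column. In MKI the black line runs from -0.75 to 0.13, and Pdgfrb and Cspg4 lie far below it.

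Other genes of mural cells were read from lists that do not contain the 9. Of 16 further pericyte genes 12 were above the filter. In MKI 6 of the 12 were 2-fold lower and none higher (median -0.96), where 19.1% of all genes tested were lower. In PKI none was past 2-fold (median -0.35), where 2.15% of all genes were. In HOMO, where 1.45% of all genes were, only Foxc1, a transcription factor of mesenchyme and mural cells, was, at 4.84 against 11.4 FPKM. The HOMO median was -0.03, of the opposite sign under quantile and TMM scaling. Notch3, the receptor by which mural cells receive Notch signals, was at 16.9 FPKM in PKI, 7.06 in MKI, 26.4 in HOMO and 26.5 in WT. Its pattern was low in MKI and intermediate in PKI, as for Cspg4. Cd248, encoding endosialin of pericytes and fibroblasts, was at 3.37 FPKM in MKI against 12.55 in WT, Vtn, encoding vitronectin, at 4.68 against 13.5, and Gja4, a gap junction gene of arterial walls, at 1.40 against 4.20. The genes of the pericyte potassium channel were nearer to WT in MKI, Abcc9 at 3.66 against 3.10 FPKM and Kcnj8 at 1.26 against 1.24.

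Of 18 further contractile genes 17 were above the filter, and their medians lay near that of all genes: 0.08 in PKI, -0.08 in MKI (0.13 under quantile normalization and 0.04 under TMM scaling) and -0.02 in HOMO. None was past 2-fold in PKI or HOMO, where 2.15% and 1.45% of all genes were. In MKI, where 19.1% of all genes tested were 2-fold lower, 2 of the 17 were. These were Pdlim7, an actin-associated scaffold, at 8.03 FPKM in MKI against 20.5 in WT, and Smtn, encoding smoothelin, at 3.12 against 6.86. Flna, encoding filamin A, was at 162 FPKM in PKI, 75.1 in MKI, 142 in HOMO and 144 in WT, a difference in MKI of -0.93. Csrp1, a LIM protein gene of smooth muscle, was at 14.7 FPKM in MKI against 29.7 in WT (-0.99). Myl9, the light chain gene whose promoter stretch is shown above, was highest in PKI as Tagln and Cnn1 were, at 38.0 FPKM, with 18.7 in MKI, 25.3 in HOMO and 24.4 in WT.

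The 12 regulators of the SRF and myocardin system were all above the filter. None of them was past 2-fold in PKI or HOMO, where 2.15% and 1.45% of all genes were. In MKI, where 19.1% of all genes tested were 2-fold lower, 4 of the 12 were. Srf was at 10.8 FPKM in PKI, 2.63 in MKI, 9.99 in HOMO and 10.01 in WT, and Mrtfa, an actin-sensing partner of SRF, at 6.10, 1.82, 6.38 and 6.51 FPKM. Only MKI was low, by 1.75 and 1.60 on the log2 scale. The others were Foxo4, a forkhead factor that can bind myocardin, at 3.17 FPKM in MKI against 12.4 in WT, and Nkx3-2, a mesenchymal homeobox gene, at 0.201 against 2.24. Myocd, which encodes myocardin, was under 2-fold from WT in MKI (-0.28), at 1.55 FPKM in PKI, 1.73 in MKI, 1.87 in HOMO and 2.19 in WT. Of the 12, 4 were above WT in MKI, none by 2-fold.

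Of 21 ligands and receptors of mural cell recruitment 19 were above the filter, and 3 of these were 2-fold lower in MKI, none in PKI or HOMO (medians -0.19 in PKI, -0.10 in MKI and -0.01 in HOMO; those in MKI and HOMO were above 0 under quantile and TMM scaling). Pdgfb, the endothelial ligand of the Pdgfrb receptor, was at 1.91 FPKM in PKI, 0.498 in MKI, 2.75 in HOMO and 2.53 in WT. Ligand and receptor had the same order of columns, MKI lowest, then PKI, WT and HOMO, with the last 3 less than 2-fold apart. This order was not particular to the pair, as Mcam, Col1a1, Myod1 and Sox10 had it too. Acvrl1, a receptor of the TGF-beta family in endothelium, was at 0.974 FPKM in MKI against 4.72 in WT, and Tgfb1 at 2.86 against 6.46. Eng, its endothelial co-receptor endoglin, was at 4.33 FPKM in PKI, 3.16 in MKI, 8.03 in HOMO and 6.57 in WT, past 2-fold in none of the comparisons with WT.

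**Figure D5:**
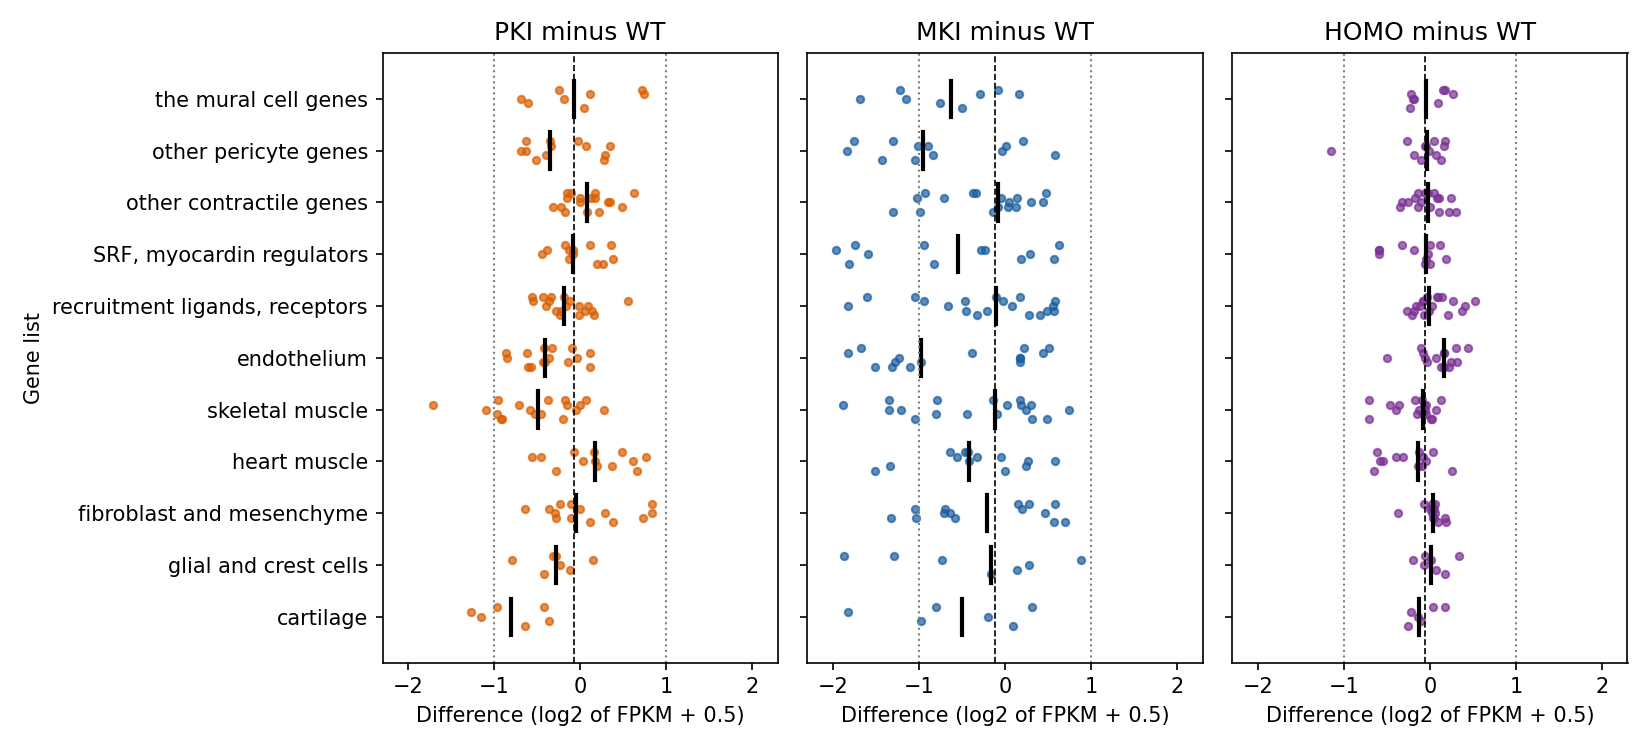
Difference from WT (log2 of FPKM + 0.5) of each gene above the filter in the mural cell lists and in lists of other cell types, 1 panel per knock-in column; points are genes, black bars are list medians, dashed lines the median of all genes tested and dotted lines 2-fold. In MKI the medians of the mural cell genes (-0.63), other pericyte genes (-0.96) and endothelium (-0.97) lie left of the dashed line, as do those of SRF and myocardin regulators (-0.55), cartilage (-0.50) and heart (-0.42), and in HOMO all medians are within 0.17 of 0.

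Lists of other cell types were read beside these, and some genes stand in several lists. In MKI, where 19.1% of all genes tested were 2-fold lower, 7 of 15 endothelial genes were. Among the 7 were Cldn5, a junction gene (1.99 against 7.48 FPKM), and Esam, an adhesion gene (1.46 against 6.44 FPKM). Pecam1 (15.1 against 10.4 FPKM) and Kdr (13.2 against 11.7 FPKM) were among 6 of the 15 above WT. Mesenchymal genes had 3 of 14 lower in MKI, with a median whose sign depended on the filter as given above, and heart genes 2 of 13 with a median of -0.42. In PKI the median was -0.81 over 6 cartilage genes, -0.49 over 18 skeletal muscle genes and -0.41 over 15 endothelial genes. With a filter of 5 FPKM these were -0.53, -0.19 and -0.57, so their order depended on the filter.

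The patterns most like those of Acta2 and Pdgfrb were sought by Euclidean distance over the 3 log2 differences from WT. Of 7037 other genes with at least 5 FPKM in every column, entries without a gene symbol were left out of the ranking. Nearest to Acta2 were Wdr61 (distance 0.04), Atrip (0.06) and Lzic (0.06). Nearest to Pdgfrb were Ngfr (0.06), Grn (0.06) and Fbln2 (0.09). Ngfr, a neurotrophin receptor, stood at 10.8 FPKM in PKI, 5.25 in MKI, 15.2 in HOMO and 13.3 in WT. Fbln2, a gene of matrix around vessels and mesenchyme, stood at 13.2, 6.38, 19.2 and 15.9 FPKM in the same columns.

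The small-RNA table offers a separate readout of smooth muscle. miR-143 and miR-145a are made from a shared cluster that SRF and myocardin activate in smooth muscle. Values are RPM, reads scaled to a fixed library total, and 505 microRNAs with at least 10 RPM in at least 2 columns were tested. miR-145a-5p was at 1232 RPM in PKI, 1265 in MKI, 746 in HOMO and 564 in WT. It was past 2-fold above WT in PKI (1.13) and MKI (1.16), where 0.792% and 2.57% of the microRNAs tested were higher, and at 0.40 in HOMO, where 2.18% were. On the deposited scale the other products of the cluster were not past 2-fold: miR-145a-3p was at 335, 371, 333 and 267 RPM, miR-143-3p at 12648, 11435, 17868 and 14361 RPM, and miR-143-5p at 95.5, 83.3, 123 and 76.6 RPM in PKI, MKI, HOMO and WT. On the deposited scale miR-143-3p, the most abundant arm, was below WT in PKI and MKI and above it in HOMO. The striated muscle microRNAs miR-1a-3p, miR-133a-3p, miR-133b-3p, miR-206-3p, miR-208b-3p and miR-499-5p differed from WT by -0.47 to 0.52 in the 3 columns on the deposited scale. Quantile normalization moved the median microRNA from -0.08 to 0.51 in MKI and from 0.07 to 0.54 in HOMO, and under it miR-145a-5p was at 1.19 in PKI, 1.65 in MKI and 0.84 in HOMO. Under it miR-145a-3p in MKI (1.22), miR-143-5p in HOMO (1.43), and miR-133a-3p, miR-133b-3p and miR-499-5p in both MKI and HOMO (1.00 to 1.13) were past 2-fold as well.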

How the data were processed

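The labels' protocols describe oligo(dT) selection, dUTP second-strand marking and paired-end reads. The submitters' processing notes list GRCm38, StringTie 1.3.4d, HISAT2 2.0.4 and cutadapt 1.9, as well as edgeR and DESeq2, which were not used here. The deposited mRNA values were taken as FPKM because they are not whole and StringTie is the quantifier named; headers name no unit. The deposited microRNA values are RPM, scaled to a common column total; the sources used here do not describe those libraries, and no count model or counting interval was used. Neither the annotation release nor whether 1 column combines libraries was stated in the sources used here. The long non-coding RNA table was not used.

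Ensembl IDs were matched to symbols, values of entries sharing a symbol were summed, and spans and promoters are from RefSeq (GRCm38.p6). Genes with at least 1 FPKM in at least 2 columns were tested on log2(FPKM + 0.5), and microRNAs with at least 10 RPM in at least 2 columns on log2(RPM + 0.5), as 6 comparisons of single columns with no p-values. limma, named for the case of replicate columns, could not be fitted. The 9 genes and all lists were chosen with earlier results of these data known. Besides the 9, the rule named the 4 genes per list furthest from WT and 6 fixed genes. Other listed genes printed (Foxc1, Myl9, Lmod1, Higd1b, Comp, Myf6, Pecam1, Kdr, Actc1 and Myh7) were chosen after their values were seen. Alternatives were pseudocounts of 0.1 and 1, no filter, a filter of 5 FPKM, quantile normalization, TMM factors (written in Python with trims of 0.3 and 0.05, without weights), a 1.5-fold threshold and, added after seeing the data, centring on genes of like span and rescaling of RPM. Steps were tested on simulated data. Python 3.11.15, numpy 2.4.6, pandas 2.3.3, scipy 1.17.1 and matplotlib 3.10.9 were used.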

Additional observations from a re-analysis of the deposited data

Results flagged for a closer look

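For 3 of the 8 genes MKI against WT and HOMO against PKI had opposite directions and lay 2-fold or more apart. With 1 column per genotype this difference was not tested. The share of all genes that meet the same rule was not computed. Of all genes tested, 19.1% were 2-fold lower in MKI against WT and 2.87% were past 2-fold in HOMO against PKI. For Cspg4 the difference in HOMO against PKI (0.50) exceeded that in MKI against WT (-1.69) by 2.19 on the log2 scale. For Pdgfrb the values were 0.43 and -1.23, apart by 1.65. For Mcam they were 0.71 and -0.76, apart by 1.47. Set against genes of like span, Mcam was at 0.73 and -0.15, less than 2-fold apart. Cspg4 (0.47 and -1.75) and Pdgfrb (0.40 and -1.28) stayed more than 2-fold apart there. All 3 contrasts contain the MKI column, which stood apart across the whole table.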

How the results depend on the processing

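No paired analysis was possible because the columns carry no replicate number, and leaving out a replicate was not run because each group has 1 column. On the deposited scale 3 of the 8 genes were past 2-fold in MKI against WT, 2 in HOMO against MKI, 2 in MKI against PKI and 0 in the other comparisons. In MKI against PKI the count was 4 with a pseudocount of 0.1, 0 with a pseudocount of 1, 0 with the filter of 5 FPKM (6 genes left), 0 under quantile normalization, 1 under TMM scaling and 5 at 1.5-fold. Centring on genes of like span left 2 there, with Pdgfrb (-1.13) past 2-fold and Cnn1 (-0.61) not. In HOMO against MKI it was 3 with a pseudocount of 0.1 (Des at 1.02), 1 with the filter of 5 FPKM and 4 at 1.5-fold. In MKI against WT it was 1 under quantile normalization, Cspg4, with Pdgfrb at -0.98 and Des at -0.79. It was 2 with the filter of 5 FPKM, which leaves out Cspg4, 2 centred on genes of like span, where Des was at -0.54, and 4 at 1.5-fold. At 1.5-fold PKI against WT had 4 genes, Cspg4 and Mcam lower and Tagln and Cnn1 higher, and HOMO against PKI had 1, Mcam. MKI was the lowest column for 7 of the 8 genes, and for 4 under quantile normalization. The share of all genes with MKI lowest was not computed, so this count cannot be set against the table as a whole. No call changed sign under any of these alternatives. Single columns and unknown depth limit every value.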
